A study of Mus musculus with 9 samples.

Results

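Collateral vessels are the native artery-to-artery connections of the brain surface that allow blood to reach a territory whose own artery is blocked. They form before birth through a signalling route in which the ligand VEGF-A acts on receptors of the arterial endothelium and Notch signalling shapes the sprouting that follows, and their number differs strongly between inbred mouse strains. The 10 genes described here are those of this route: the ligand Vegfa, its receptors Flt1 and Kdr, the Notch ligand Dll4 and receptor Notch1, the sheddases Adam10 and Adam17, the intracellular proteins Clic4 and Rabep2, and the arterial connexin Gja4. They were chosen by their known function in collateral formation, with earlier results of these data known. They are 10 of the 54532 genes in the deposited table. RNA sequencing was performed on brain cortex of 9 male mice, 3 each of C57BL6/J (B6), C3H/HeJ (C3H) and WSB/EiJ (WSB), aged 8 to 12 weeks. The labels give no treatment, transgene or engineered allele for any group, and each library comes from 1 mouse. The reference genome is that of B6. B6 and C3H are classical laboratory strains, whereas WSB was derived from wild mice. The comparisons addressed whether the genes of collateral formation differ in adult cortex between strains that were studied for their differences in stroke outcome.

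Levels are given as FPKM, the number of fragments scaled for gene length and library size, as deposited by the authors. Between 16317439 and 21562429 reads lay on genes in each library, with the lowest depths in WSB. Strains were compared in pairs by limma on log2(FPKM + 0.1), with Benjamini-Hochberg adjustment over all genes tested and a threshold of 0.05. With the 0.1 added, the fold change of a gene with a low FPKM comes out smaller than it is. The pairwise comparisons share mice, so that a low value in a C3H mouse enters both comparisons that hold C3H. C3H replicate 2 stood apart from the other C3H mice, with a chi-square per gene of 22.6 and 24.1 against them, where C3H replicates 1 and 3 gave 8.11 against each other. To a lesser degree B6 replicate 1 also stood apart, with 13.3 and 19.2, where B6 replicates 2 and 3 gave 7.87 against each other. Between C3H and B6 the log2 fold change also rose with the GC content of the gene (Spearman's rho 0.485 across 12940 genes, which are not independent replicates). Between WSB and C3H it fell with GC content (rho -0.397 across 12998 genes), and between WSB and B6 rho was 0.114 (13036 genes).

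Vegfa was the only member of the 10 to pass the threshold in any of the 3 comparisons. It was higher in WSB than in C3H by 0.59 on the log2 scale. Of all genes tested, 5.74% passed between WSB and C3H, 4.64% between C3H and B6 and 5.9% between WSB and B6. The other 9 genes, including Rabep2, did not pass in any comparison. For all 10 genes the 95% interval of the difference between WSB and B6, and of that between WSB and C3H, lay within 1 log2 unit of 0, as it did for 63.5% and 61.7% of all genes tested. The same was true of 9 genes between C3H and B6, where the interval of Gja4 extended to 1.33 and 63.6% of all genes lay within that limit.

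The promoters at the first start sites of Rabep2 and Vegfa are shown. That of Rabep2 was chosen because variation in this gene is known to underlie much of the strain difference in collateral number. That of Vegfa was chosen because it was the only member to pass the threshold. Each sequence is the reference (RefSeq, GRCm38.p6) for the 250 bases before the start, read in the direction of the gene, with the GC box GGGCGG in capitals. No variant of C3H or WSB was examined. The Rabep2 sequence lies at chr7:126428517-126428766 on the plus strand and the Vegfa sequence at chr17:46032378-46032627 on the minus strand.
Rabep2: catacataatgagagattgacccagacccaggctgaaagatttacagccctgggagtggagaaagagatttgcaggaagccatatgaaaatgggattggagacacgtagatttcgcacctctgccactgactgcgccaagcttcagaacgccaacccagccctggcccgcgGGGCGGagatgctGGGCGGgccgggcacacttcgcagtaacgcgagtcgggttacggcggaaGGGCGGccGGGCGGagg
Vegfa: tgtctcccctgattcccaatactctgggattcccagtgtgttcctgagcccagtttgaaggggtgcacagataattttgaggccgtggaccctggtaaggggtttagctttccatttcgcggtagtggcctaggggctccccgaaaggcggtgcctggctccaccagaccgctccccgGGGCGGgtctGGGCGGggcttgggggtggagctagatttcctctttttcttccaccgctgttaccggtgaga

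In these 250 bases, 4 GC boxes were found before the Rabep2 start and 2 before the Vegfa start. Windows of 300 bases, from 250 before to 50 after each start, were listed for all 10 genes and numbered 11, since Vegfa had a second start. Searched on both strands, where matches may overlap each other or another motif, GGGCGG was found in all 11 windows and in 35.7% of the 32851 windows of all genes. The hypoxia response core ACGTG was found in the windows of Rabep2, of Adam10 and of the second Vegfa start, and in 19.6% of all windows. The core TGGGAA, to which RBPJ, the DNA-binding partner of Notch, binds, was found in both Vegfa windows and in that of Kdr, and in 25.6% of all windows. TATAAA was found only in the Flt1 window among the 11, and in 13.6% of all windows.

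All 10 genes were detected in every mouse. By mean level over the 9 mice they ran from Vegfa with 14.0 FPKM, Adam10 with 13.8 FPKM and Clic4 with 11.5 FPKM, through Rabep2 with 3.10 FPKM, Adam17 with 2.10 FPKM, Flt1 with 1.92 FPKM and Gja4 with 1.42 FPKM, down to Notch1 with 0.991 FPKM, Kdr with 0.725 FPKM and Dll4 with 0.415 FPKM. The 3 most abundant genes were set apart from Rabep2 in each strain, and their own ranges overlapped with those of their neighbours in the order, except Adam10 and Clic4 in WSB. Adam17 and Flt1 overlapped in each strain, as did Gja4 with Flt1 in C3H, Gja4 with Notch1 in B6, and Notch1 with Kdr in WSB. Kdr was above Dll4 without overlap in each strain. Vegfa had a higher mean than 75.7% of the 15134 protein-coding genes whose mean reached 0.1 FPKM, Rabep2 than 40.4% and Dll4 than 11.9%.

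**Figure D1:**
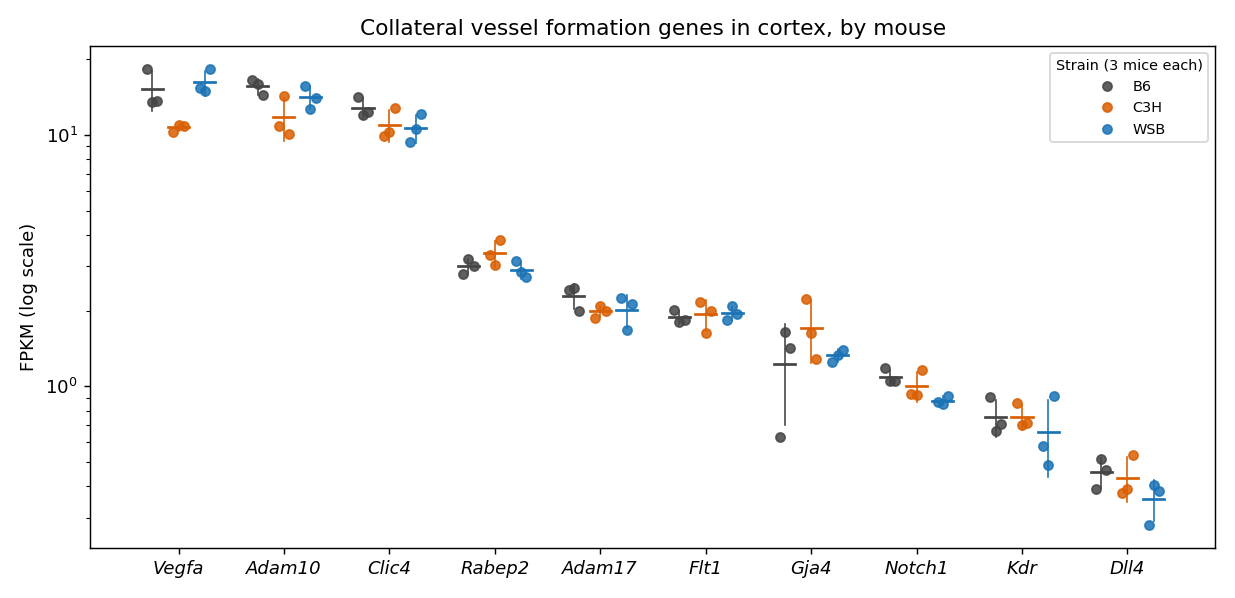
FPKM of the 10 genes (vertical axis, log scale) in each mouse, by strain, ordered by mean level. Points are mice, horizontal bars the mean and vertical lines the SD (n = 3). The 3 C3H values of Vegfa, between 10.3 and 11.0 FPKM, lie below those of all B6 and WSB mice.

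The depth behind these levels differed greatly. Dll4 rested on 18 to 40 reads per mouse, Gja4 on 19 to 70 and Kdr on 76 to 151, whereas Vegfa had 821 to 1430 and Clic4 1028 to 1728. At the mean number of reads per mouse in each strain, counting error alone came to between 16.9% and 20.4% of the Dll4 level, and to between 2.80% and 3.37% of the Vegfa level. For 9 of the 10 genes the largest ratio between 2 mice of 1 strain was at least as large as the ratio of the highest to the lowest strain mean. For Vegfa the ratio of strain means was 1.51 and the largest ratio within a strain 1.35, in B6. A largest ratio is set here against a ratio of means, and the share among all genes was not computed. The count is therefore a description only.

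Vegfa (ENSMUSG00000023951, chromosome 17, 46016993 to 46032369, minus strand, 7 exons in the longest transcript, GRCm38) encodes the growth factor that drives endothelial sprouting, and in adult cortex it is made largely outside the endothelium. Its level was 18.4, 13.6 and 13.7 FPKM in the 3 B6 mice, 10.3, 11.0 and 10.8 FPKM in the C3H mice, and 15.4, 14.9 and 18.3 FPKM in the WSB mice. The C3H mice were the 3 lowest of the 9, with no overlap with either other strain, and for 28.9% of all genes C3H did not overlap with B6 and for 28.6% it did not overlap with WSB. The B6 and WSB ranges of Vegfa overlapped. The mean was 15.2 ± 2.73 FPKM in B6, 10.7 ± 0.372 FPKM in C3H and 16.2 ± 1.82 FPKM in WSB (SD, n = 3 each). The highest B6 value, 18.4 FPKM, was that of B6 replicate 1, which stood apart from the other B6 mice. That mouse also had the highest summed level of striatal markers of the 9 mice, 432 FPKM. The part of this in its Vegfa value was not tested. WSB was above C3H by 0.59 on the log2 scale (SE 0.10, 95% interval 0.36 to 0.81, adjusted p = 0.0154 by limma). C3H was below B6 by a log2 fold change of -0.49 (SE 0.13, adjusted p = 0.0778 by limma), which did not pass the threshold. Weighting the recovered reads with voom took this comparison past it, at -0.50 with an adjusted p of 0.0450. That was the only 1 of 18 alternatives to pass. Across the 18 the log2 fold change ran from -0.56 to -0.34, with adjusted p-values by limma up to 0.236. Between WSB and B6 the log2 fold change was 0.10, with a 95% interval from -0.23 to 0.42. Among all genes tested between WSB and C3H, 77.9% had a smaller absolute fold change than Vegfa.

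The difference between WSB and C3H kept its direction in all 18 alternative settings, with log2 fold changes from 0.50 to 0.64, and passed the threshold in 14 of them. It did not pass without C3H replicate 1, with an adjusted p of 0.0762 by limma, or without C3H replicate 3, with 0.0616. It also did not pass with limma's variance estimated without a trend, with an adjusted p of 0.0561, or with the replicate number as a block, with 0.0539, although these numbers did not pair the mice. Markers of red blood cells also differed between these strains, though not all in the same way. Their summed level (Hba-a1, Hba-a2, Hbb-bs, Hbb-bt and Alas2, all detected) was 632 to 1010 FPKM in C3H, 217 to 254 FPKM in B6 and 249 to 329 FPKM in WSB. Of the 5, 3 were called higher in C3H than in B6 and 3 lower in WSB than in C3H. Hbb-bt went the other way between C3H and B6, at a log2 fold change of -1.39 that was not called. Between WSB and B6, Hbb-bt was called lower, at -4.56, and Hba-a1 higher, at 0.91. Summed microglial markers, at 122 to 126 FPKM in WSB and 143 to 172 FPKM in C3H, and oligodendrocyte markers, at 427 to 617 FPKM in WSB and 734 to 989 FPKM in C3H, were also lower in all WSB mice than in all C3H mice. The part of these contents in the Vegfa difference was not tested. Removing each library's trend with GC content left the difference at 0.62, with an adjusted p of 0.0113 by limma.

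**Figure D2:**
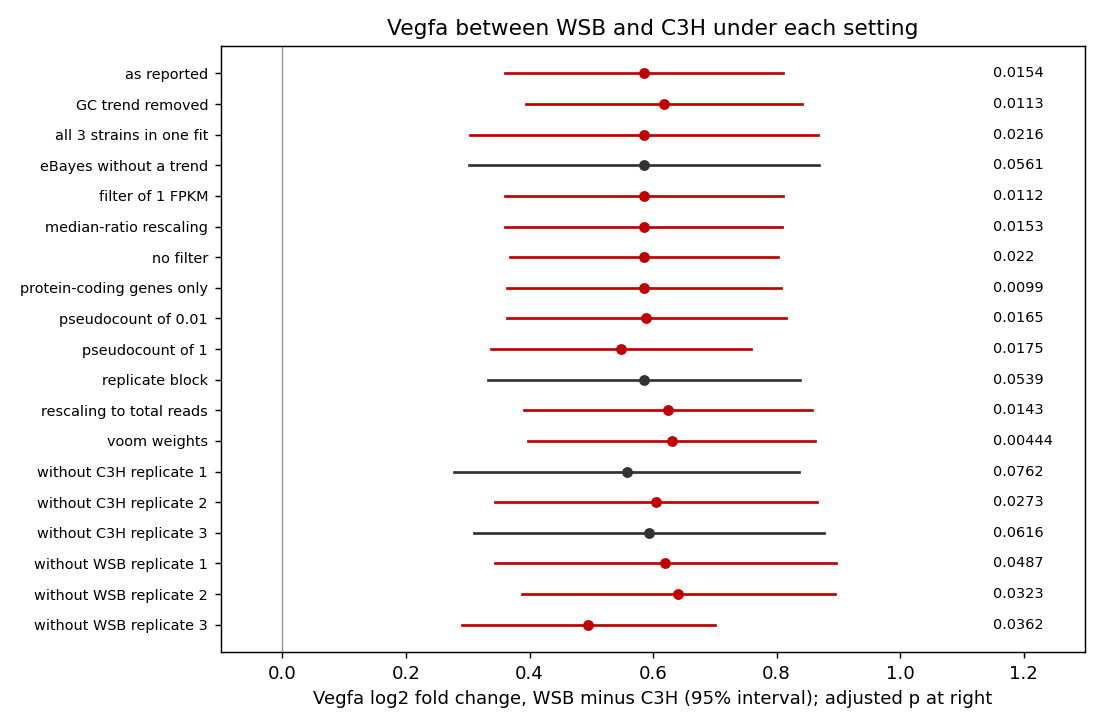
Log2 fold change of Vegfa between WSB and C3H (horizontal axis, positive where WSB is higher) with its 95% interval, as reported and under each of 18 alternatives. Adjusted p-values stand at the right, and red marks those under 0.05. All estimates lie between 0.50 and 0.64, and 4 alternatives lose the call.

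The VEGF receptors did not pass the threshold in any comparison. Flt1 (ENSMUSG00000029648, chromosome 5, 147561604 to 147726011, minus strand) encodes VEGFR1, which binds VEGF-A tightly and acts largely as a decoy. It had 2.01, 1.80 and 1.84 FPKM in B6, 2.17, 1.64 and 2.0 FPKM in C3H, and 1.83, 2.08 and 1.94 FPKM in WSB. The ranges of the 3 strains overlapped, and the strain means, from 1.88 FPKM in B6 to 1.95 FPKM in WSB, lay within 1.04-fold of each other. The log2 fold changes of Flt1 were 0.05 between WSB and B6, 0.03 between C3H and B6 and 0.02 between WSB and C3H, with 95% intervals that together extended from -0.33 to 0.37.

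Kdr (ENSMUSG00000062960, chromosome 5, 75932827 to 75978458, minus strand) encodes VEGFR2, the main signalling receptor of endothelial cells. It had 0.903, 0.664 and 0.707 FPKM in B6, 0.857, 0.703 and 0.713 FPKM in C3H, and 0.579, 0.486 and 0.915 FPKM in WSB. WSB held both the lowest and the highest value of Kdr among the 9 mice, so its spread covered that of the other strains. For Kdr the log2 fold change was 0.01 between C3H and B6, with a 95% interval from -0.47 to 0.48, and -0.20 between WSB and B6, with an interval from -0.83 to 0.42.

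Ratios within a library do not depend on its scaling. Vegfa stood at 6.31, 5.51 and 5.36 times the sum of Flt1 and Kdr in B6, at 3.40, 4.71 and 3.99 times in C3H, and at 6.37, 5.82 and 6.40 times in WSB. The C3H mice were again the lowest without overlap. The exact permutation test gave a two-sided p of 0.1 against each of the other strains, the smallest that 3 mice against 3 allow, and 0.4 after adjustment over the 12 ratio comparisons made. The ratio of Flt1 to Kdr was 2.51 ± 0.259 in B6, 2.56 ± 0.239 in C3H and 3.18 ± 1.08 in WSB (SD, n = 3 each), and these ranges overlapped.

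Endothelial content bears on these receptors, since in bulk tissue fewer cells of a type and less RNA per cell cannot be told apart. The summed level of 16 endothelial markers was 103 to 111 FPKM in B6, 107 to 126 FPKM in C3H and 93.6 to 97.7 FPKM in WSB, lower in WSB than in either other strain without overlap, and all 16 were detected in all 9 mice. Of these markers 2 were called lower in WSB than in B6, where 5.9% of all genes tested were called. Between WSB and C3H, 2 were called lower in WSB, against 5.74% of all genes. Between C3H and B6, 2 were called higher in C3H and 0 lower, against 4.64% of all genes. The highest marker, Itm2a, with a mean of 24.0 FPKM, weighed most in the sum and was among the calls in both comparisons with WSB. Between WSB and B6 the median log2 fold change of the 16 was -0.07, with 13 lower and 3 higher. Between WSB and C3H it was -0.22, with 12 lower and 4 higher. The sum is therefore a rough measure of endothelial content. Taken as a percentage of the endothelial sum, Flt1 and Kdr together made up 2.50 ± 0.291 in B6, 2.34 ± 0.136 in C3H and 2.71 ± 0.218 in WSB (SD, n = 3 each). The WSB values of this percentage lay above the C3H values without overlap (exact permutation p = 0.1, two-sided, adjusted p = 0.4) and overlapped with those of B6. The part of endothelial content in the strain values of each member, Vegfa included, was not tested beyond this ratio.

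In the Notch route, Dll4 (ENSMUSG00000027314, chromosome 2, 119325784 to 119335962, plus strand) encodes the ligand that tip cells present to their neighbours. It had 0.391, 0.514 and 0.463 FPKM in B6, 0.377, 0.389 and 0.535 FPKM in C3H, and 0.281, 0.405 and 0.384 FPKM in WSB. All 3 ranges overlapped, and at 18 to 40 reads per mouse a difference of this size was not detectable. Between WSB and B6, Dll4 had a log2 fold change of -0.29, with a 95% interval from -0.89 to 0.31.

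Notch1 (ENSMUSG00000026923, chromosome 2, 26457903 to 26516663, minus strand) encodes the receptor that Dll4 activates. It had 1.18, 1.05 and 1.05 FPKM in B6, 0.929, 0.925 and 1.16 FPKM in C3H, and 0.866, 0.848 and 0.915 FPKM in WSB. All WSB values of Notch1 were below all B6 and all C3H values, while B6 and C3H overlapped. The difference did not pass the test, at a log2 fold change of -0.29 between WSB and B6 (SE 0.16, adjusted p = 0.376 by limma) and -0.17 between WSB and C3H (SE 0.18, adjusted p = 0.590 by limma). Groups of 3 that do not overlap were common in these data, at 26% of all genes tested between WSB and B6. The summed endothelial markers, in which Itm2a weighed most, were also lower in all WSB mice. Notch1 shares 1068 exon bases with 0610009E02Rik on the opposite strand, whose highest level was 0.600 FPKM in a WSB mouse. Whether the counting used strand is not given in the sources used here.

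The sheddases cut Notch receptors and many other membrane proteins. Adam10 (ENSMUSG00000054693, chromosome 9, 70678997 to 70780229, plus strand) encodes the protease that cuts ligand-bound Notch. It had 16.6, 15.9 and 14.4 FPKM in B6, 10.8, 14.3 and 10.1 FPKM in C3H, and 15.7, 12.7 and 14.0 FPKM in WSB. C3H was below B6 without overlap, by a narrow gap between C3H replicate 2 and B6 replicate 3, and WSB overlapped with both. The log2 fold change of Adam10 between C3H and B6 was -0.42 (SE 0.14, adjusted p = 0.129 by limma). Without C3H replicate 2 it was -0.57 and passed, with an adjusted p of 0.0197. Once each library's GC trend was removed it was -0.19. Adam10 has the lowest GC content of the 10 genes, 42.1%.

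Adam17 (ENSMUSG00000052593, chromosome 12, 21323509 to 21373632, minus strand) encodes the related sheddase that also cuts VEGFR2 and releases cytokines. It had 2.42, 2.45 and 1.99 FPKM in B6, 1.88, 2.09 and 2.0 FPKM in C3H, and 2.24, 1.67 and 2.13 FPKM in WSB, with ranges that overlapped in all pairs. The log2 fold change of Adam17 was -0.19 between C3H and B6 and -0.18 between WSB and B6, with 95% intervals from -0.50 to 0.12 and from -0.55 to 0.19. The end of the gene shares 311 exon bases with Iah1 on the opposite strand, which had 3.99 ± 0.105 FPKM in B6, 5.44 ± 0.447 FPKM in C3H and 4.95 ± 0.338 FPKM in WSB (SD, n = 3 each). Adam10 stood at 6.85 ± 0.357 times Adam17 in B6, at 5.89 ± 0.901 times in C3H and at 7.06 ± 0.509 times in WSB (SD, n = 3 each). The smallest exact permutation p among these 3 comparisons was 0.2, and 0.48 after adjustment.

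Clic4 (ENSMUSG00000037242, chromosome 4, 135213969 to 135272814, minus strand) encodes a chloride intracellular channel protein whose loss in mice reduces collateral formation. It had 14.2, 12.1 and 12.3 FPKM in B6, 9.88, 10.3 and 12.9 FPKM in C3H, and 9.41, 10.5 and 12.1 FPKM in WSB. The B6 mice lay toward the top, but B6 overlapped with C3H through C3H replicate 3 and with WSB through WSB replicate 3. Clic4 had a log2 fold change of -0.27 between WSB and B6 (SE 0.11, unadjusted p = 0.0469, adjusted p = 0.237 by limma) and -0.23 between C3H and B6 (SE 0.12, adjusted p = 0.284 by limma). Gm8388, a sequence 95.02% identical to Clic4 over 763 aligned bases, had 0 reads in all 9 mice.

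Rabep2 (ENSMUSG00000030727, chromosome 7, 126428759 to 126449245, plus strand) encodes a Rab effector of endosomes that takes part in the recycling of VEGFR2. It had 2.80, 3.22 and 3.02 FPKM in B6, 3.33, 3.03 and 3.81 FPKM in C3H, and 3.16, 2.84 and 2.73 FPKM in WSB. C3H held the highest values of Rabep2 and WSB the lowest mean, and the ranges overlapped in all pairs. The mean was 3.01 ± 0.209 FPKM in B6, 3.39 ± 0.398 FPKM in C3H and 2.91 ± 0.227 FPKM in WSB (SD, n = 3 each). The log2 fold change of Rabep2 was -0.05 between WSB and B6, with a 95% interval from -0.31 to 0.22, and -0.21 between WSB and C3H, with an interval from -0.51 to 0.09. Between C3H and B6 it was 0.16 (SE 0.12, adjusted p = 0.461 by limma), and -0.02 with the GC trend removed. Rabep2 has the highest GC content of the 10 genes, 60.9%.

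Gja4 (ENSMUSG00000050234, chromosome 4, 127311421 to 127314039, minus strand) encodes connexin 37, a gap junction protein of arterial endothelium. It had 0.630, 1.65 and 1.42 FPKM in B6, 2.23, 1.62 and 1.28 FPKM in C3H, and 1.25, 1.34 and 1.40 FPKM in WSB. B6 replicate 1 was the lowest of all 9 mice with 19 reads and C3H replicate 1 the highest with 70, and the ranges overlapped in all pairs. The log2 fold change of Gja4 was 0.51 between C3H and B6, with a 95% interval from -0.32 to 1.33, the widest of any member. Between WSB and B6 it was 0.19, and -0.19 without B6 replicate 1. That mouse also had the highest summed level of 6 striatal markers, 432 FPKM against 77.0 to 264 FPKM in the other mice, and the part of this in the Gja4 value was not tested.

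**Figure D3:**
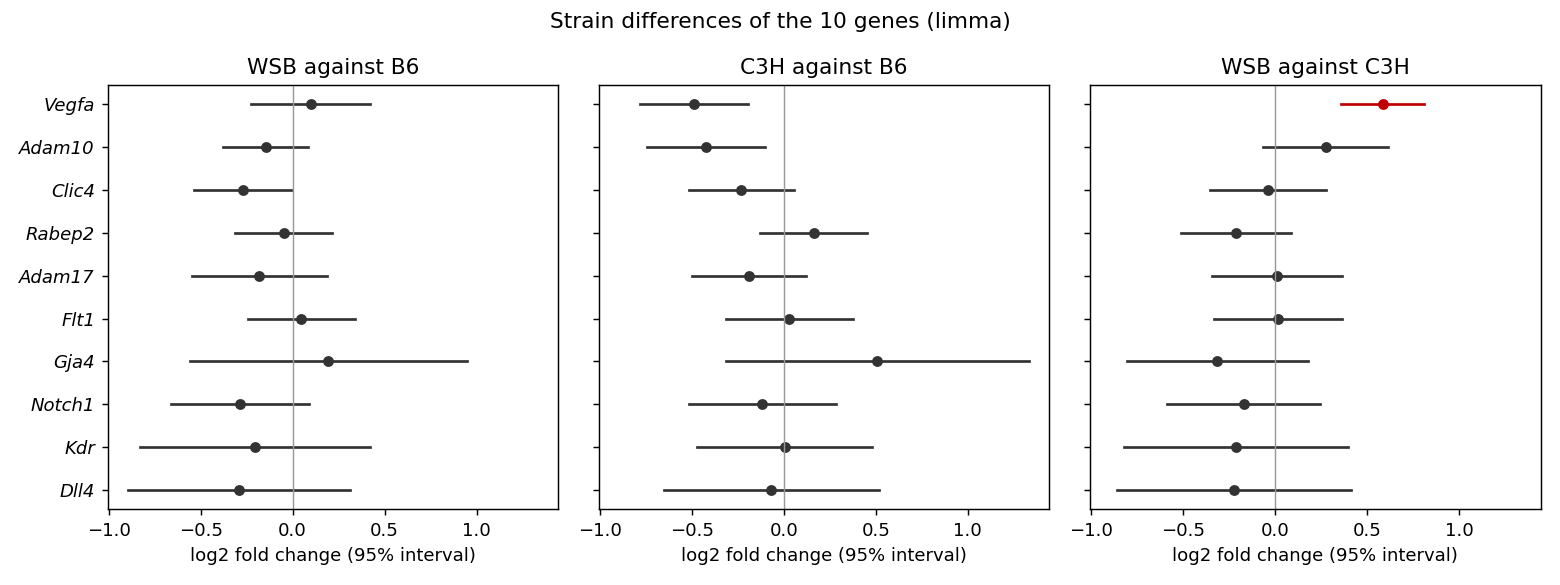
Log2 fold change (points) with 95% interval (lines) for the 10 genes in each comparison, positive where the strain named first is higher. The interval of Vegfa between WSB and C3H, from 0.36 to 0.81, is in red as the only call. The other intervals that leave out 0 are those of Vegfa and Adam10 between C3H and B6, and of Clic4 between WSB and B6.

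Counted together, none of the 10 genes was called between WSB and B6 by limma, where 5.9% of 20746 genes tested were called. With voom weights none was called either, where 1542 of the 20746 genes were. By limma without adjustment, 1 of the 10 had p under 0.05, Clic4, against 20.4% of all genes. Between C3H and B6 none was called by limma, where 4.64% of 20602 genes were called. With voom weights 1 was called, where 1426 of the 20602 genes were. By limma, 2 had an unadjusted p under 0.05 against 24.1% of all genes. Between WSB and C3H, 1 was called, where 5.74% of 20607 genes were called, and that gene was also the 1 with an unadjusted p under 0.05, against 23.8%. The median log2 fold change of the 10 genes was -0.16 between WSB and B6, -0.09 between C3H and B6 and -0.10 between WSB and C3H, and that of all genes was between -0.01 and 0.01 in each. Groups did not overlap for 1 member between WSB and B6, where 26% of all genes did not overlap, for 2 between C3H and B6, where 28.9% did not, and for 2 between WSB and C3H, where 28.6% did not.

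The wider routes around these genes were followed in 9 lists, chosen by function with earlier results of these data known. The lists held 71 genes, of which 70 were tested. Of these, 4 were called lower in WSB than in B6, or 5.71% against 5.9% of all genes. Between C3H and B6, 1 was called higher and 1 lower, or 2.86% against 4.64%, and between WSB and C3H, 1 was called lower, or 1.43% against 5.74%. The lists thus held no larger share of calls than all genes did. No gene was called in the lists of other VEGF ligands (Vegfb, Vegfc, Vegfd and Pgf), other VEGF receptors (Flt4, Nrp1 and Nrp2), or the 9 other Notch receptors and ligands in any comparison, nor among the 3 other connexins tested. Gja5, the other arterial connexin, lay below the mean of 0.1 FPKM set for testing. The calls fell on 6 genes, which were Ncstn, Aph1b, Rbpj, Frmd8, Rab4a and Clic3.

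Among 15 genes of Notch processing, the 2 calls between WSB and B6 were subunits of γ-secretase, the complex that makes the last cut in Notch. Ncstn (ENSMUSG00000003458), encoding nicastrin, had 12.9 ± 0.896 FPKM in B6, 11.6 ± 1.29 FPKM in C3H and 9.56 ± 0.348 FPKM in WSB (SD, n = 3 each). It was lower in WSB than in B6 by a log2 fold change of -0.42 (SE 0.08, adjusted p = 0.0232 by limma), with no overlap. Ncstn shares exon bases with Copa on the opposite strand, which had 22.2 ± 0.771 FPKM in B6 and 18.4 ± 0.342 FPKM in WSB (SD, n = 3 each). Aph1b (ENSMUSG00000032375) had 6.20 ± 0.431 FPKM in B6 and 4.65 ± 0.207 FPKM in WSB (SD, n = 3 each), at a log2 fold change of -0.41 (SE 0.09, adjusted p = 0.0464 by limma). Aph1b is 97.1% identical to Aph1c over 1624 aligned bases, so its reads may be split between them, and Aph1c had 1.39 ± 0.0220 FPKM in B6 and 1.13 ± 0.195 FPKM in WSB (SD, n = 3 each). The call for Ncstn held in 10 of 18 alternatives and that for Aph1b in 6.

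Rbpj (ENSMUSG00000039191), encoding the protein through which Notch acts on transcription, had 2.25 ± 0.141 FPKM in B6, 1.10 ± 0.132 FPKM in C3H and 1.12 ± 0.0565 FPKM in WSB (SD, n = 3 each). It was lower than in B6 in C3H by a log2 fold change of -0.98 (SE 0.15, adjusted p = 0.0107 by limma) and in WSB by -0.94 (SE 0.13, adjusted p = 0.0072 by limma). With a pseudocount of 1 these became -0.64 and -0.61, both past the threshold. The call between WSB and B6 held in all 18 alternatives, and that between C3H and B6 in 16, the exceptions being without B6 replicate 1 (adjusted p = 0.0508 by limma) and without B6 replicate 2 (0.0519). This gene is uncertain, because a near-identical copy can take or give up reads. Rbpj-ps3, looked at after the Rbpj values were seen, is 99.7% identical to Rbpj over 1441 aligned bases and had at most 1 read in a B6 mouse, against 27 to 34 in a C3H mouse and 24 to 34 in a WSB mouse. With both genes summed, each B6 mouse had 552 to 583 reads, each C3H mouse 271 to 324 and each WSB mouse 261 to 310. B6 was above the other strains without overlap in this sum. How reads that fit both copies were counted is not given in the sources used here, so the sum does not settle the uncertainty. Of the other 9 genes of the list of nuclear factors and Notch targets, none was called in any comparison.

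**Figure D4:**
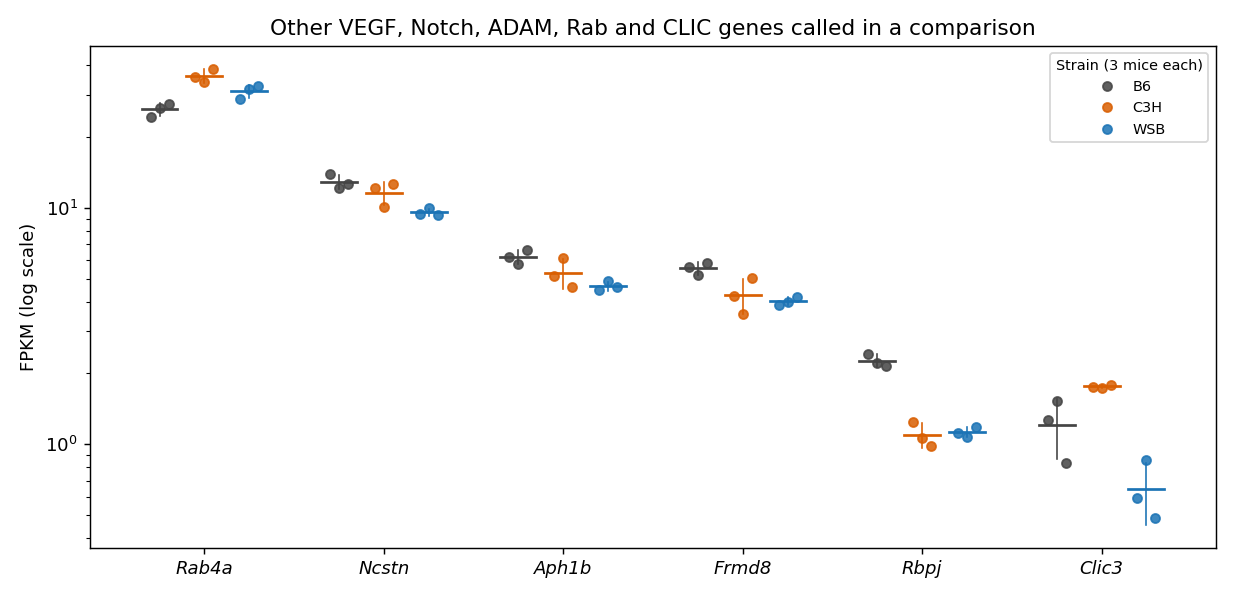
FPKM (vertical axis, log scale) in each mouse of the 6 genes called in at least 1 comparison among the 71 of the surrounding routes. Points are mice, horizontal bars the mean and vertical lines the SD (n = 3). Rbpj lies near 2.25 FPKM in B6 and near 1.1 FPKM in C3H and WSB.

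Frmd8 (ENSMUSG00000024816), which encodes a protein that keeps the iRhom partners of Adam17 at the cell surface, was the 1 call among 11 regulators of the sheddases. It had 5.55 ± 0.337 FPKM in B6, 4.28 ± 0.739 FPKM in C3H and 4.04 ± 0.161 FPKM in WSB (SD, n = 3 each), lower in WSB than in B6 by a log2 fold change of -0.45 (SE 0.09, adjusted p = 0.0323 by limma). The call held in 9 of 18 alternatives. Rab4a (ENSMUSG00000019478), a small GTPase of rapid endosomal recycling, was the 1 call among 11 genes of early and recycling endosomes. Its level was 26.0 ± 1.60 FPKM in B6, 36.2 ± 2.37 FPKM in C3H and 31.2 ± 1.98 FPKM in WSB (SD, n = 3 each), and it was higher in C3H than in B6 by a log2 fold change of 0.47 (SE 0.08, adjusted p = 0.0199 by limma). This call held in 12 of 18 alternatives.

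Clic3 (ENSMUSG00000015093), a relative of Clic4, was called between WSB and C3H. It had 1.27, 1.52 and 0.835 FPKM in B6, 1.75, 1.73 and 1.78 FPKM in C3H, and 0.594, 0.856 and 0.487 FPKM in WSB, on 9 to 35 reads per mouse. The log2 fold change was -1.35 (SE 0.21, adjusted p = 0.0139 by limma), and the call held in 14 of 18 alternatives, with values from -1.54 without WSB replicate 2 to -0.75 with a pseudocount of 1. It did not pass without C3H replicate 1, C3H replicate 3 or WSB replicate 1 of the mice left out in turn. Clic1, Clic5 and Clic6 were not called in any comparison, and Clic4 had a log2 fold change of -0.04 between these strains.

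The labelled tissue was checked by marker genes. The 6 markers of cortical excitatory neurons were detected in all mice and summed to 313 to 476 FPKM. Neuronal, astrocyte and arterial sums overlapped in all 3 pairs of strains, but single markers differed. The neuronal marker Syt1 was called lower in C3H than in B6, at a log2 fold change of -1.11. It was called higher in WSB than in C3H, at 0.86, and the other 5 neuronal markers were not called. The astrocyte marker Gfap was called lower in WSB than in C3H, at -0.70, and the other 5 were not called. Mural markers summed to 19.6 to 20.9 FPKM in B6, 15.5 to 22.1 FPKM in C3H and 19.8 to 23.5 FPKM in WSB. Their only calls were Acta2, lower in WSB than in B6 at -1.01, and Rgs5, higher in WSB than in C3H at 0.72. Meningeal markers, none of them called, summed to 17.4 to 23.0 FPKM in B6, 17.1 to 24.4 FPKM in C3H and 14.7 to 25.8 FPKM in WSB. Other content differed between strains or mice. Microglial and oligodendrocyte markers, lower in WSB than in C3H as given for Vegfa, were also lower in WSB than in B6, where they summed to 137 to 148 FPKM and to 784 to 982 FPKM. Choroid plexus markers summed to 63.8 to 761 FPKM among the B6 mice alone, and to 465 to 601 FPKM in WSB. The part of these differences in the values of the 10 genes was not tested.

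**Figure D5:**
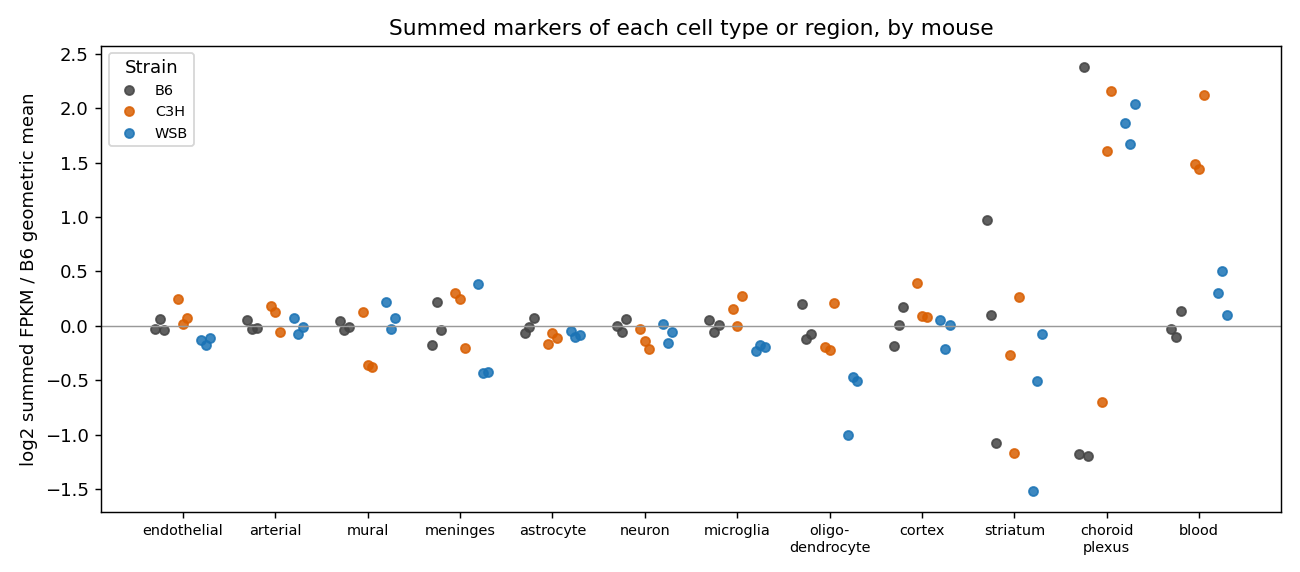
Summed FPKM of the markers of each cell type or region in each mouse, as log2 of the ratio to the geometric mean of the B6 mice (vertical axis). Blood markers in the 3 C3H mice and oligodendrocyte and microglial markers in the 3 WSB mice lie outside the B6 range, and choroid plexus and striatal markers spread widely among mice.

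The genes whose log2 level followed that of Rabep2 most closely over the 9 mice, among the 13010 genes whose mean reached 1 FPKM, were E130317F20Rik (Pearson's r 0.93), Ephx1 (0.93) and Snd1 (0.93). For Vegfa they were Dhx57 (0.97), Enpp5 (0.96) and Gm48796 (0.96). Dhx57 had a mean of 8.90 FPKM in B6, 7.86 FPKM in C3H and 9.21 FPKM in WSB, and Enpp5 of 54.7, 48.3 and 57.2 FPKM, the same order of strains as Vegfa. For Vegfa 78 genes reached an r over 0.9 and for Rabep2 8. These correlations describe 9 libraries that share strain, depth and base composition.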

How the data were processed

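RNA of brain cortex from 3 male mice each of C57BL6/J, C3H/HeJ and WSB/EiJ was sequenced from both ends, 150 bp each. According to the study's methods and the submitters' processing notes, the reads were trimmed with Cutadapt and handled with STAR, HTSeq and DESeq2, with versions and strand setting not given in the sources used here. The authors deposited FPKM values per gene and mouse in 1 table, all of whose value columns were used. Multiplied by gene length, these were whole multiples of 1 step per library (tolerance 0.001 of a read), which gave back the reads for depth, counting error and voom weights. Intervals of counts cover counting error only.

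Identifiers were matched to GENCODE M21 on GRCm38, where 54495 of 54532 were found, 53462 with the same coordinates, and all 10 members. GC content was known for 54409 genes. Strains were compared by limma 3.58.1 (R 4.3.3) on log2(FPKM + 0.1), with two-sided moderated tests whose variance followed a trend with level, for each gene whose mean reached 0.1 FPKM in the mice of the pair. The Benjamini-Hochberg adjustment covered all genes tested. The script was tested on simulated data. Similar transcripts were searched with blastn 2.17.0, promoters came from RefSeq (GRCm38.p6), and figures were drawn with matplotlib 3.10.9.

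The members and lists were chosen with earlier results of these data known. All 10 members were named, with each gene of the 9 surrounding lists past the threshold in at least 1 comparison, the summed level of 12 lists of cell type and region markers, and the 3 genes most like Rabep2 and Vegfa over the mice. Copies and overlapping genes were looked at after the values were seen. Mice of 1 strain differed by a chi-square per gene of 7.87 to 24.1, so no library was counted as a duplicate. The alternatives were leaving the filter out or raising it to 1 FPKM, adding 0.01 or 1 to the FPKM, rescaling by median ratios or total reads, a joint fit of the strains, a variance without trend, voom weights, a replicate block, testing protein-coding genes alone, removal of each library's GC trend (loess, span 0.5), and leaving out each mouse.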

Additional observations from a re-analysis of the deposited data

Results flagged for a closer look

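For 2 genes the difference from B6 was not the same in WSB as in C3H, as tested by the direct comparison of WSB with C3H. Vegfa had a log2 fold change of 0.59 between WSB and C3H (adjusted p = 0.0154 by limma), higher in all 3 WSB mice than in all 3 C3H mice. Clic3 had a log2 fold change of -1.35 (adjusted p = 0.0139 by limma), lower in all 3 WSB mice than in all 3 C3H mice, on 9 to 35 reads per mouse.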

How the results depend on the processing

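Of the refits of the 10 members, 508 kept both direction and side of the threshold, 18 turned the sign of a difference that had not passed, 2 gained a call and 4 lost that of Vegfa. Between WSB and C3H the members called fell from 1 to 0 without a trend in the variance and with the replicate block, and numbered 0 to 1 when mice were left out (0 without C3H replicate 1 or 3). Between C3H and B6 they rose from 0 to 1 with voom weights, and numbered 0 to 1 when mice were left out, with Adam10 called without C3H replicate 2. The signs that turned were those of Kdr between C3H and B6 on rescaling to total reads (-0.0060), Rabep2 in that comparison with the GC trend removed (-0.020), and, between WSB and C3H, Adam17 with the GC trend removed (-0.095) and Clic4 with voom weights (0.0011). When mice were left out, log2 fold changes between C3H and B6 ranged from -0.20 to 0.0081 for Dll4, from -0.053 to 0.14 for Flt1 and from -0.076 to 0.12 for Kdr. Gja4 between WSB and B6 ranged from -0.19 to 0.44. Between WSB and C3H, Adam17 ranged from -0.069 to 0.13, Clic4 from -0.13 to 0.077 and Flt1 from -0.094 to 0.10.

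Over all genes, the replicate block gave 754 calls between WSB and B6, 480 between C3H and B6 and 531 between WSB and C3H, and voom weights gave 1796 in the last, where the share of calls higher in WSB moved from 45.5% to 57.9%. Leaving out a mouse gave 651 to 825 calls, 498 to 2301 and 475 to 2002 in the same order, the highest of the last 2 ranges without C3H replicate 2. The replicate numbers did not pair the mice, since the correlations of the deviations of same-numbered mice ran from -0.157 to 0.037. Dll4, Gja4 and Kdr had the fewest reads of the 10 genes, down to 18 in a mouse for Dll4, and for Gja4 in B6 the spread between mice (a coefficient of variation of 43.3%) exceeded counting error (15.4%). Causes were not tested.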
